A study of Mus musculus with 9 samples.

Results

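Angiogenic growth factor ligands are secreted proteins that tell blood vessels to sprout, mature or regress. The 9 ligand genes described here were chosen by symbol from the deposited expression table: Vegfa, Vegfb, Vegfc, Angpt1, Angpt2, Apln, Pdgfa, Pdgfb and Fgf1. All 9 were among the 13539 genes listed, and all 9 passed the minimum for testing, a normalized count of at least 1 in at least 3 libraries. RNA sequencing was done on hearts of male mice aged 12 weeks on the C57BL/6JOlaHsd background, with 3 libraries in each of 3 groups. The first group was OMA1 knockout mice given isoproterenol, a β-adrenergic agonist, at 10 mg/kg per day through an implanted minipump over 7 days. The second was wild-type mice given the same treatment, and the third was OMA1 knockout mice that received no treatment. The groups are called treated knockout, treated wild-type and untreated knockout hearts below. OMA1 is a protease of the inner mitochondrial membrane that is switched on by stress. The labels do not say how the knockout allele was made or whether a sham pump was used, so drug and pump cannot be told apart. Wild-type hearts without treatment are not among the 9 samples. A genotype difference under treatment therefore cannot be told apart from one present without it. The effect of treatment in wild-type hearts cannot be estimated.

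In the heart, vascular endothelial growth factors bind the receptor kinases FLT1, KDR and FLT4 on endothelial cells, and cardiomyocytes are a main source of VEGF-A and VEGF-B. Angiopoietin 1 activates the endothelial receptor TEK (TIE2) and keeps vessels quiescent, while angiopoietin 2, which is made by endothelial cells themselves, usually counters it and loosens the vessel wall for sprouting. Apelin is a peptide of sprouting endothelial tip cells, PDGF-B recruits pericytes through the receptor PDGFRB, and FGF1 is a growth factor without a secretion signal that is abundant in cardiac muscle.

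The upstream sequences of the VEGF genes and of Apln are shown because these genes went different ways in treated knockout hearts: Vegfa, Vegfc and Apln rose and Vegfb fell against untreated knockout hearts. Of the 9 genes, 5 have an entry in the RefSeq promoter table used here (GRCm38.p6). The 250 bases before each annotated start, 5′ to 3′, were searched on both strands for the core of the hypoxia response element, ACGTG or GCGTG, and for AGGTCA, the half-site of nuclear receptors such as the oestrogen-related receptors. Matches are in capitals.
Vegfa, chr17:46032378-46032627, minus strand: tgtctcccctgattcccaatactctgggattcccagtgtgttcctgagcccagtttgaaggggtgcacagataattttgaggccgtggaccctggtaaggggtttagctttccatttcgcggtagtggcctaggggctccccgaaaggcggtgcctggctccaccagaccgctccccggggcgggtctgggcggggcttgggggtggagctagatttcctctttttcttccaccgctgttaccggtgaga
Vegfb, chr19:6987652-6987901, minus strand: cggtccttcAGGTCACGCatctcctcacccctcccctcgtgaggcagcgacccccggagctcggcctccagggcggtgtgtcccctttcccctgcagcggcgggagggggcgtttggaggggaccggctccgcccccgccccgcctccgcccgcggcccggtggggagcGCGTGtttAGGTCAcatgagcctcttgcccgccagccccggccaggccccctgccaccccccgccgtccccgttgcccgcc
Vegfc, chr8:54077282-54077531, plus strand: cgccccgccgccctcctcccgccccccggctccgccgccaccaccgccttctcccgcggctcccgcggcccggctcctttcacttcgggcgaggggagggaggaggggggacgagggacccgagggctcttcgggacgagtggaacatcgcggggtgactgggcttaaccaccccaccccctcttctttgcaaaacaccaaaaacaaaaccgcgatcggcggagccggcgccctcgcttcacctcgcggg
Apln, chrX:48034854-48035103, minus strand: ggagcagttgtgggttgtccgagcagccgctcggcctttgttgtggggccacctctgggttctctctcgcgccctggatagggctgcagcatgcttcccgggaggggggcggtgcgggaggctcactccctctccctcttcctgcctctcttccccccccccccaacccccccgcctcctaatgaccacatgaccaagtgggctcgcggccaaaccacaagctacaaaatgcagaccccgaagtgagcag
The window of Vegfb held 2 matches to GCGTG and 2 to AGGTCA. One GCGTG match lay 81 to 77 bases before the start, followed by AGGTCA at 73 to 68. The other, on the opposite strand at 237 to 233, overlapped AGGTCA at 241 to 236. The windows of Vegfa, Vegfc and Apln held neither motif in these letters. Of all 32851 promoter windows of this length, 38.6% held a hypoxia core and 14% held AGGTCA.

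The knockout showed in Oma1 itself, which stood at 6.74, 5.73 and 6.25 in treated knockout hearts, 22, 19.9 and 17.7 in treated wild-type hearts and 6.52, 9.10 and 6.63 in untreated knockout hearts. Libraries held 6933879 to 12187701 reads, recovered from the deposited values. The 12 cardiomyocyte markers were present in every group. Replicate 2 of the treated knockout group stood apart from its group in mitochondrial transcripts (42.5% of the signal, against 38.2% and 39.6%) and in haemoglobin transcripts (Hba-a1 at 1529, against 340 and 448). Replicate 3 of the treated wild-type group stood apart in fibroblast markers, whose sum was 4941, against 2708 and 2881 in the other 2 libraries. Atrial markers were higher in the untreated hearts: Bmp10 was at 0 in all 6 treated libraries and at 42.9, 17.8 and 29.0 in untreated knockout hearts, and Sln was at 0 to 0.0811 in treated knockout hearts and at 0 in treated wild-type hearts, with untreated knockout hearts at 53.7 to 134. Nppa was at 84.9, 117 and 100.2 in treated knockout hearts and at 51.8, 86.0 and 842 in treated wild-type hearts, with untreated knockout hearts at 1616, 740.2 and 1101, so replicate 3 of the treated wild-type group stood apart in Nppa and lay above 1 untreated library. All 7 atrial markers were lower in both treated groups than in untreated knockout hearts, and 0 of 7 passed between the treated groups by limma, edgeR or DESeq2, with 0, 1 and 0 at an unadjusted p under 0.05. Their summed level was 102 to 134 in treated knockout hearts and 68.1 to 871 in treated wild-type hearts, with untreated knockout hearts at 1200 to 2681. The part of the atrial tissue in the differences from untreated hearts was not tested.

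Treated knockout hearts differed from untreated knockout hearts in 8 of the 9 ligand genes. Apln, Pdgfb, Angpt2, Vegfc and Vegfa were higher, and Angpt1, Fgf1 and Vegfb were lower. Pdgfa did not pass the threshold, an adjusted p under 0.05. In this comparison 41.7% of the 13369 genes tested passed, 21.3% as higher and 20.4% as lower. The groups did not overlap for 8 of the 9 ligands, against 54.9% of all genes tested. Between treated knockout and treated wild-type hearts 4 of the 9 passed, against 17.4% of all genes: Pdgfb, Angpt2 and Vegfa were higher, as were 7.92% of all genes, and Fgf1 was lower, as were 9.47%. The groups did not overlap for 3 of the 9, against 36.1% of all genes. Between treated wild-type and untreated knockout hearts, which differ in both genotype and treatment, 6 of the 9 passed, against 26.8% of all genes: Apln, Pdgfb and Angpt2 were higher (13.9% of all genes), and Angpt1, Fgf1 and Vegfb were lower (12.9%). These groups did not overlap for 7 of the 9, against 42.3%. A log2 difference of at least 1 in size that passed was found for 3 of the 9 between the knockout groups (Angpt1, Fgf1 and Apln), against 4.5% of all genes, for 1 (Angpt1) between treated wild-type and untreated knockout hearts, against 3.46%, and for 0 between the treated groups, against 0.381%. The added 1 decides this count for Angpt2, a low gene, whose difference between the knockout groups was 0.93 on this scale and up to 1.18 in tests on the recovered reads. The 3 comparisons share their groups, so their results are not independent. Differences below are in log2(normalized count + 1), with the standard error of the limma fit, and p-values carry a Benjamini-Hochberg adjustment that spans the 13369 genes. The labels give the tissue as heart and do not say which part of it was taken. In RNA of heart tissue, fewer cells of a type and less RNA per cell cannot be told apart.

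**Figure D1:**
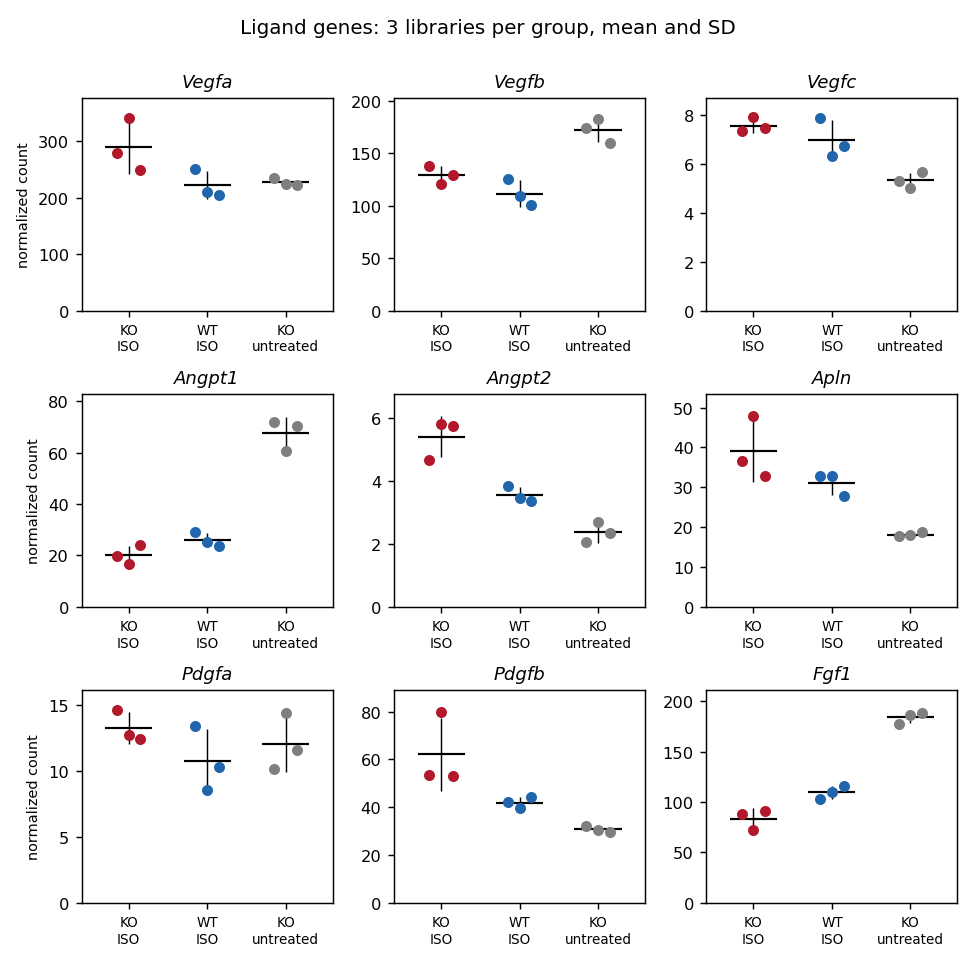
Normalized counts (vertical axes, from 0) of the 9 ligand genes in each library, by group, with treated knockout (KO ISO) left of treated wild-type (WT ISO) and untreated knockout hearts. Points are libraries, horizontal lines are means and vertical lines SDs of 3 libraries. Angpt1 and Fgf1 are highest in untreated hearts, and Apln, Pdgfb and Angpt2 are highest on average in treated knockout hearts.

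Vegfa (ENSMUSG00000023951) lies on the minus strand of chromosome 17, from 46016993 to 46032369 (GRCm38). Vegfa encodes VEGF-A, the main inducer of vessel growth, which can be raised by hypoxia through HIF factors. Its normalized count was 278, 341 and 248 in treated knockout hearts, 250, 210 and 205 in treated wild-type hearts and 234, 224 and 222 in untreated knockout hearts. Treated knockout libraries were all above the untreated ones, but their lowest library fell just under the highest treated wild-type one. The difference was 0.38 ± 0.10 from treated wild-type hearts (adjusted p = 0.024) and 0.34 ± 0.10 from untreated knockout hearts (adjusted p = 0.017). Both calls were lost without treated knockout replicate 2, at 0.25 (adjusted p = 0.089) and 0.21 (adjusted p = 0.075). The first was also lost when treated wild-type replicate 2 (adjusted p = 0.084) was left out, or 3 (adjusted p = 0.051), and the second without untreated knockout replicate 2 (adjusted p = 0.055) or 3 (adjusted p = 0.054). Without the mean-variance trend of limma both calls were lost (adjusted p = 0.079 and 0.057). A fit of only the 2 groups compared lost the first (adjusted p = 0.066). Treated wild-type and untreated knockout hearts differed by -0.04 ± 0.10 (adjusted p = 0.81). The 13 annotated transcripts of Vegfa were not separated in these gene-level values.

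Vegfb (ENSMUSG00000024962) lies on the minus strand of chromosome 19, from 6982473 to 6987651 (GRCm38). Vegfb encodes VEGF-B, a ligand of FLT1 that is abundant in heart muscle and has little sprouting activity of its own. It was at 138, 121 and 129 in treated knockout hearts, 125, 109 and 100.2 in treated wild-type hearts and 174, 182 and 160.0 in untreated knockout hearts. Every untreated library was above every treated one, while the treated groups overlapped. Vegfb was lower than in untreated knockout hearts in both treated groups, with a difference of -0.41 ± 0.09 for treated knockout hearts (adjusted p = 0.0017) and of -0.63 ± 0.09 for treated wild-type hearts (adjusted p = 0.00014). The treated groups differed by 0.22 ± 0.09 (adjusted p = 0.098), which passed when treated wild-type replicate 1 was left out (0.30, adjusted p = 0.036), with scaling to the non-mitochondrial sum (0.27, adjusted p = 0.029) and with cyclic loess (0.30, adjusted p = 0.013), and turned to -0.08 (adjusted p = 0.62) when libraries were first corrected for the length and GC content of transcripts. In each library the ratio of Vegfa to Vegfb counts was 2.02, 2.82 and 1.92 in treated knockout hearts, 1.99, 1.93 and 2.04 in treated wild-type hearts and 1.34, 1.23 and 1.39 in untreated knockout hearts. The ratio was thus above every untreated library in all 6 treated ones, while the treated groups overlapped.

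Vegfc (ENSMUSG00000031520) lies on the plus strand of chromosome 8, from 54077606 to 54187096 (GRCm38). Vegfc encodes VEGF-C, the ligand of FLT4 that drives growth of lymphatic vessels. It was a low-abundance transcript with 41 to 92 reads per library, at 7.36, 7.92 and 7.46 in treated knockout hearts, 7.89, 6.34 and 6.73 in treated wild-type hearts and 5.31, 5.04 and 5.66 in untreated knockout hearts. Treated knockout hearts were higher than untreated ones by 0.44 ± 0.12 (adjusted p = 0.012; 0.094 with DESeq2), and the treated groups overlapped, with a difference of 0.11 ± 0.12 (adjusted p = 0.59). Treated wild-type hearts were at 0.33 ± 0.12 over untreated knockout hearts and did not pass (adjusted p = 0.065). Of 7 lymphatic markers, 1 was higher and 1 lower in treated than in untreated knockout hearts (median 0.26), against 21.3% and 20.4% of all genes. Both are named after their values were seen: Flt4 was higher (0.78 ± 0.12, adjusted p = 0.00013) and Prox1 lower (-0.88 ± 0.11, adjusted p = 3.8e-05). Prox1 made up much of the summed level of the 7, which was 106 to 121 in treated knockout hearts and 120 to 134 in treated wild-type hearts, with untreated knockout hearts at 134 to 141. Prox1 alone averaged 50.3 in treated knockout, 76.0 in treated wild-type and 92.4 in untreated knockout hearts. The sum was therefore not taken as a level of lymphatic vessels.

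Angpt1 (ENSMUSG00000022309) lies on the minus strand of chromosome 15, from 42424723 to 42676977 (GRCm38). Angpt1, the TEK agonist made mostly by cells around the endothelium, showed the largest difference of the 9. It was at 19.9, 16.5 and 23.8 in treated knockout hearts, 29.0, 25.3 and 23.6 in treated wild-type hearts and 72.1, 60.5 and 70.2 in untreated knockout hearts. All treated libraries lay far below all untreated ones. The difference from untreated knockout hearts was -1.71 ± 0.12 in treated knockout hearts (adjusted p = 5.7e-07, a ratio of 0.305 in normalized count + 1) and -1.35 ± 0.12 in treated wild-type hearts (adjusted p = 4.4e-06). Angpt1 differed between the treated groups by -0.37 ± 0.12 (adjusted p = 0.052, and 0.016 to 0.21 over the alternatives tried), and the treated groups overlapped. It was -0.24 without treated knockout replicate 2 (adjusted p = 0.21), and it passed without treated knockout replicate 3 (adjusted p = 0.016) or treated wild-type replicate 3 (adjusted p = 0.034).

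Angpt2 (ENSMUSG00000031465) lies on the minus strand of chromosome 8, from 18690263 to 18741562 (GRCm38). Angpt2, the counterpart of Angpt1, had the lowest level of the 9 per transcript length, with 17 to 71 reads per library. It was at 4.66, 5.84 and 5.76 in treated knockout hearts, 3.85, 3.46 and 3.36 in treated wild-type hearts and 2.05, 2.71 and 2.35 in untreated knockout hearts. The groups did not overlap in any of the 3 comparisons. Angpt2 was higher in treated knockout hearts by 0.93 ± 0.15 over untreated ones (adjusted p = 0.00026) and by 0.49 ± 0.15 over treated wild-type ones (adjusted p = 0.038). Treated wild-type hearts exceeded untreated knockout hearts by 0.44 ± 0.15 (adjusted p = 0.044). The call between the treated groups was lost in turn without treated knockout replicate 2 or 3 or any 1 of the 3 treated wild-type libraries (adjusted p = 0.066 to 0.13), with DESeq2 (adjusted p = 0.15) and with cyclic loess scaling (adjusted p = 0.077). The call for treated wild-type hearts was lost without any 1 of the 3 treated wild-type libraries, treated knockout replicate 3, or untreated knockout replicate 1 or 3 (adjusted p = 0.061 to 0.13), with edgeR (adjusted p = 0.062), voom (adjusted p = 0.087) and DESeq2 (adjusted p = 0.22), and once length and GC content were corrected for (adjusted p = 0.11). The ratio of Angpt2 to Angpt1 counts was 0.234, 0.354 and 0.241 in treated knockout hearts, 0.133, 0.137 and 0.142 in treated wild-type hearts and 0.0285, 0.0447 and 0.0335 in untreated knockout hearts, with no overlap between groups.

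Apln (ENSMUSG00000037010) lies on the minus strand of chromosome X, from 48025146 to 48034853 (GRCm38). Apln encodes apelin, the peptide ligand of the G-protein-coupled receptor APLNR, which also strengthens contraction of the heart. It was at 36.6, 47.9 and 32.9 in treated knockout hearts, 32.9, 32.7 and 27.7 in treated wild-type hearts and 17.6, 18 and 18.7 in untreated knockout hearts. The untreated libraries were close together and below all treated ones. Treated knockout hearts exceeded untreated ones by 1.06 ± 0.12 (adjusted p = 1.5e-05), which is 2.08-fold in normalized count + 1. Treated wild-type hearts did so by 0.75 ± 0.12 (adjusted p = 0.00046). The treated groups overlapped and differed by 0.31 ± 0.12 (adjusted p = 0.092), by 0.16 without treated knockout replicate 2 (adjusted p = 0.37) and by 0.42 without replicate 3 of that group (adjusted p = 0.036).

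Pdgfb and Pdgfa encode the chains of platelet-derived growth factor. Pdgfb (ENSMUSG00000000489) lies on chromosome 15 from 79995874 to 80014977 and Pdgfa (ENSMUSG00000025856) on chromosome 5 from 138976014 to 138997370, both on the minus strand (GRCm38). Pdgfb was at 53.6, 79.9 and 53.0 in treated knockout hearts, 42.0, 39.8 and 44.1 in treated wild-type hearts and 32.1, 30.6 and 29.4 in untreated knockout hearts. The groups formed 3 separate steps. Treated knockout hearts were higher by 0.97 ± 0.13 over untreated knockout hearts (adjusted p = 4.2e-05) and by 0.53 ± 0.13 over treated wild-type hearts (adjusted p = 0.012). Replicate 2 gave the highest value, and without it the differences were 0.78 (adjusted p = 1.7e-05) and 0.34 (adjusted p = 0.021). Treated wild-type hearts were higher than untreated knockout hearts by 0.44 ± 0.13 (adjusted p = 0.019), a call that was lost without untreated knockout replicate 2 (adjusted p = 0.057) or 3 (adjusted p = 0.062). That call was also lost without the mean-variance trend of limma (adjusted p = 0.057). Pdgfa, whose product acts mainly on PDGFRA of fibroblasts, was at 14.6, 12.7 and 12.4 in treated knockout hearts, 13.4, 8.53 and 10.3 in treated wild-type hearts and 10.1, 14.4 and 11.6 in untreated knockout hearts. Its groups overlapped in all 3 comparisons, with differences of 0.30 ± 0.15 (adjusted p = 0.20) between the treated groups and 0.14 ± 0.15 (adjusted p = 0.51) between the knockout groups. Treated wild-type and untreated knockout hearts differed in Pdgfa by -0.16 ± 0.15 (adjusted p = 0.48).

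Fgf1 (ENSMUSG00000036585) lies on the minus strand of chromosome 18, from 38838673 to 38929472 (GRCm38). Fgf1, a ligand of all main FGF receptors, was at 87.7, 71.8 and 90.9 in treated knockout hearts, 103, 110 and 116 in treated wild-type hearts and 177, 186 and 188 in untreated knockout hearts. As for Pdgfb the groups formed 3 separate steps, in the opposite order. Treated knockout hearts were lower than untreated ones, with a difference of -1.14 ± 0.09 (adjusted p = 7.2e-07), and lower than treated wild-type ones, with -0.39 ± 0.09 (adjusted p = 0.0078). Treated wild-type hearts were lower than untreated knockout hearts, with -0.74 ± 0.09 (adjusted p = 3.4e-05). Fgf1 kept its call in all 26 alternatives in each of the 3 comparisons.

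**Figure D2:**
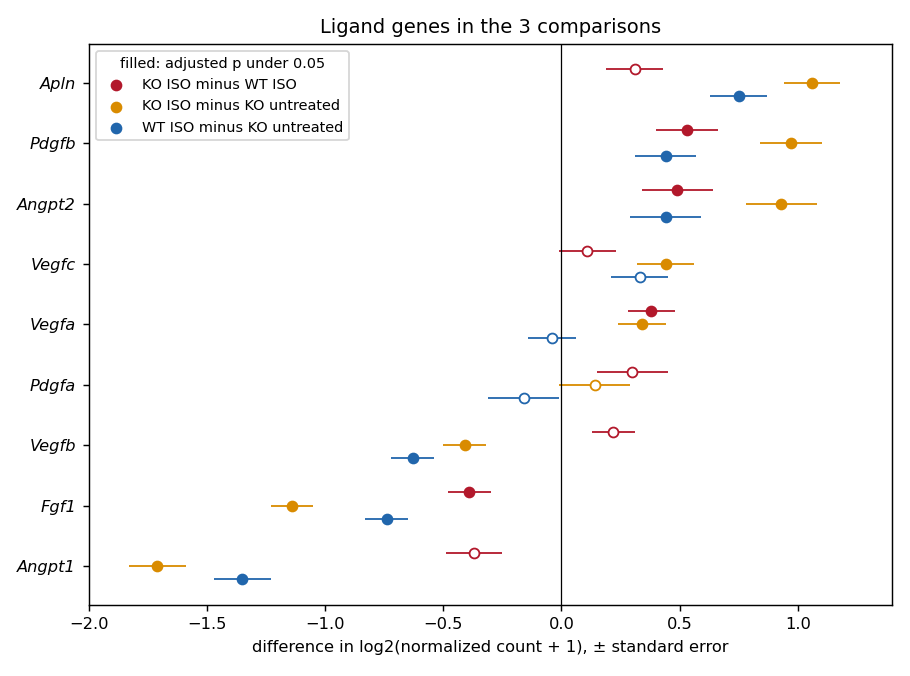
Difference in log2(normalized count + 1) of each ligand gene (horizontal axis, ± standard error of the limma fit) in the 3 comparisons, filled where the adjusted p was under 0.05. Between the knockout groups the values run from -1.71 for Angpt1 to 1.06 for Apln, and between the treated groups from -0.39 for Fgf1 to 0.53 for Pdgfb.

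Markers of endothelial cells were mostly higher in treated knockout hearts than in either other group. Their summed level over 18 genes was 3620 to 3923 in treated knockout hearts and 3106 to 3454 in treated wild-type hearts, with untreated knockout hearts at 2876 to 3004. Of the 18, 16 were higher and 1 lower in treated than in untreated knockout hearts (median 0.87, against 0.02 for all genes). The lower one, Cd36, which is also expressed by cardiomyocytes, is named after its value was seen. Cd36 did not pass without treated knockout replicate 2 or any 1 of the untreated libraries. In treated knockout against treated wild-type hearts 15 were higher and 0 lower (median 0.43, against 0.02). Of all genes, 21.3% were higher and 20.4% lower between the knockout groups, and 7.92% and 9.47% between the treated groups. Proliferation markers, at a summed 143 to 271 in treated knockout hearts and 147 to 207 in treated wild-type hearts, with untreated knockout hearts at 20.3 to 26.9, also moved with treatment, and 0 of the 12 passed between the treated groups by limma, edgeR or DESeq2, with 0 at an unadjusted p under 0.05 by each. Mural cell markers summed to 1244 to 1505 in treated knockout hearts and 1356 to 1616 in treated wild-type hearts, with untreated knockout hearts at 970.3 to 999.96. Cardiomyocyte markers summed to 56767 to 61536 in treated knockout hearts and 52996 to 63251 in treated wild-type hearts, with untreated knockout hearts at 66724 to 70741; 1 of 12 was higher and 4 were lower between the knockout groups (median -0.15), while 3 were higher and 1 was lower between the treated groups (median 0.18). Between the knockout groups 10 of 12 fibroblast markers and 5 of 9 macrophage markers were also higher. The part of these cell types in the ligand differences was not tested.

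Per kilobase of the longest annotated transcript, the level of Vegfb was the highest of the 9 in each group, at 101 ± 6.65 in treated knockout, 87.0 ± 9.93 in treated wild-type and 134 ± 8.71 in untreated knockout hearts (SD, n = 3 each). Vegfa followed at 83.8 ± 13.7, 64.2 ± 7.14 and 65.7 ± 1.85 in the same groups. This order rests on lengths of 1281 bases for Vegfb and 3451 for Vegfa, while by count Vegfa was above Vegfb in every library. Which transcripts were expressed is not known from these gene-level values. In untreated knockout hearts the order then ran Fgf1, Angpt1, Pdgfb, Pdgfa, Apln, Vegfc and Angpt2, in which only Pdgfa and Apln, at 5.85 ± 1.05 and 5.74 ± 0.165, overlapped among neighbours. In treated knockout hearts Pdgfb ranked 3, at 21.1 ± 5.23, next to Fgf1 at 21.0 ± 2.56, with which it overlapped, as did Vegfb with Vegfa. Angpt1 ranked 7 in treated knockout hearts, at 4.71 ± 0.867 per kilobase, against rank 4 and 15.9 ± 1.46 in untreated knockout hearts. In treated wild-type hearts Angpt1 ranked 6, at 6.09 ± 0.642, and overlapped with Pdgfa at 5.21 ± 1.19. Angpt2 was last everywhere, at 1.52 ± 0.184 in treated knockout, 0.999 ± 0.0726 in treated wild-type and 0.666 ± 0.0917 in untreated knockout hearts.

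**Figure D3:**
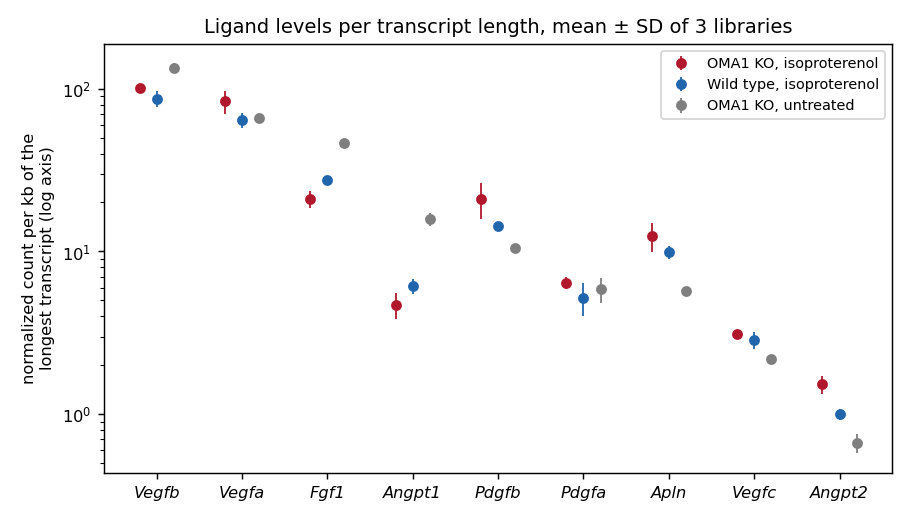
Level of each ligand gene as normalized count per kilobase of its longest annotated transcript (vertical axis, logarithmic), with the mean and SD of 3 libraries for each group. Vegfb and Vegfa lead in every group, and Angpt1 falls behind Pdgfb and Apln in both treated groups.

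Receptors of these ligands and of related ones were mostly higher in treated than in untreated knockout hearts. Of 14 tested, 11 were higher and 2 lower (median 0.49), against 21.3% and 20.4% of all genes. The 2 lower ones, Fgfrl1 (-0.50 ± 0.12) and Met (-0.87 ± 0.21), the receptor of hepatocyte growth factor, are named after their values were seen. Tie1 is also 1 of the 18 endothelial markers, whose median in this comparison was 0.87, and Flt4 is also a lymphatic marker. The part of endothelial cells in the receptor differences was not tested. Kdr, the main signalling receptor of VEGF-A, was at 295, 354 and 293 in treated knockout hearts, 261, 278 and 240 in treated wild-type hearts and 170, 180 and 203 in untreated knockout hearts. It exceeded untreated knockout hearts by 0.76 ± 0.09 (adjusted p = 2.2e-05), and treated wild-type hearts by 0.27 ± 0.09, which did not pass (adjusted p = 0.055). The second difference passed in 6 of the 26 alternatives, among them DESeq2 (adjusted p = 0.039) and cyclic loess (adjusted p = 0.022). Without treated knockout replicate 2 it was 0.18 (adjusted p = 0.21). Flt1, the receptor of VEGF-B and a trap for VEGF-A, was at 110, 136 and 118 in treated knockout hearts, 99.4, 98.6 and 91.6 in treated wild-type hearts and 86.7, 83.1 and 92.2 in untreated knockout hearts. Flt1 was higher in treated knockout hearts than in either other group, by 0.32 ± 0.08 over treated wild-type hearts (adjusted p = 0.015) and 0.47 ± 0.08 over untreated knockout hearts (adjusted p = 0.00042). Without treated knockout replicate 2 the first of these was 0.24 (adjusted p = 0.056), and without the mean-variance trend of limma it did not pass (adjusted p = 0.058). Nrp2, a co-receptor of VEGF-C, was at 89.6 ± 10.1 in treated and 43.6 ± 5.09 in untreated knockout hearts (1.02 ± 0.09, adjusted p = 3.1e-06).

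Tek, the angiopoietin receptor, was at 83.3, 80.9 and 86.1 in treated knockout hearts, 70.6, 72.3 and 76.2 in treated wild-type hearts and 55.2, 58.0 and 62.0 in untreated knockout hearts, so it rose between the knockout groups (0.51 ± 0.07, adjusted p = 6.8e-05) while its agonist Angpt1 fell. Tek differed between the treated groups by 0.19 ± 0.07 (adjusted p = 0.076), which passed in 4 of the 26 alternatives. Its relative Tie1 was higher there by 0.45 ± 0.08 (adjusted p = 0.0035). Aplnr, the apelin receptor, was at 103, 113 and 112 in treated knockout hearts, 88.5, 106 and 96.5 in treated wild-type hearts and 55.7, 59.5 and 70.2 in untreated knockout hearts. It was higher in treated than in untreated knockout hearts by 0.81 ± 0.09 (adjusted p = 1.4e-05), and differed by 0.17 ± 0.09 between the treated groups (adjusted p = 0.22).

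Pdgfrb, the pericyte receptor of PDGF-B, was at 81.9 ± 4.24 in treated knockout, 85.0 ± 3.35 in treated wild-type and 70.3 ± 5.96 in untreated knockout hearts. It was higher in treated than in untreated knockout hearts by 0.22 ± 0.08 (adjusted p = 0.033), a call lost without treated knockout replicate 1 or 3 (adjusted p = 0.13 and 0.061) or untreated knockout replicate 3 (adjusted p = 0.16). This call was also lost without the mean-variance trend of limma (adjusted p = 0.077), with DESeq2 (adjusted p = 0.081) and with voom (adjusted p = 0.052). Pdgfra was at 40.8 ± 1.41 in treated knockout, 44.2 ± 4.13 in treated wild-type and 37.4 ± 1.37 in untreated knockout hearts, with a difference of 0.12 ± 0.08 between the knockout groups (adjusted p = 0.24). Fgfr1, a receptor of FGF1, was at 36.5 ± 3.07 in treated knockout, 30.6 ± 5.58 in treated wild-type and 27.8 ± 3.01 in untreated knockout hearts, higher in treated than in untreated knockout hearts by 0.39 ± 0.12 (adjusted p = 0.018). That call was lost without treated knockout replicate 2 or untreated knockout replicate 1 or 2 (adjusted p = 0.068 to 0.07). Of all genes, 7.92% were higher and 9.47% lower in treated knockout than in treated wild-type hearts. In this comparison 2 of the 14 receptors were higher and 1 was lower, with a median of 0.22. Fgfrl1 was the lower one (-0.40 ± 0.12, adjusted p = 0.037). Without treated knockout replicate 2 the count was 1 higher and 0 lower, and without treated wild-type replicate 3 it was 4 higher and 0 lower. Treated wild-type hearts exceeded untreated knockout hearts in 8 of the 14 receptors and were lower in 0, against 13.9% and 12.9% of all genes. Kdr was at 0.49 ± 0.09 (adjusted p = 0.0012), Aplnr at 0.65 ± 0.09 (adjusted p = 0.00017) and Tek at 0.32 ± 0.07 (adjusted p = 0.0043).

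**Figure D4:**
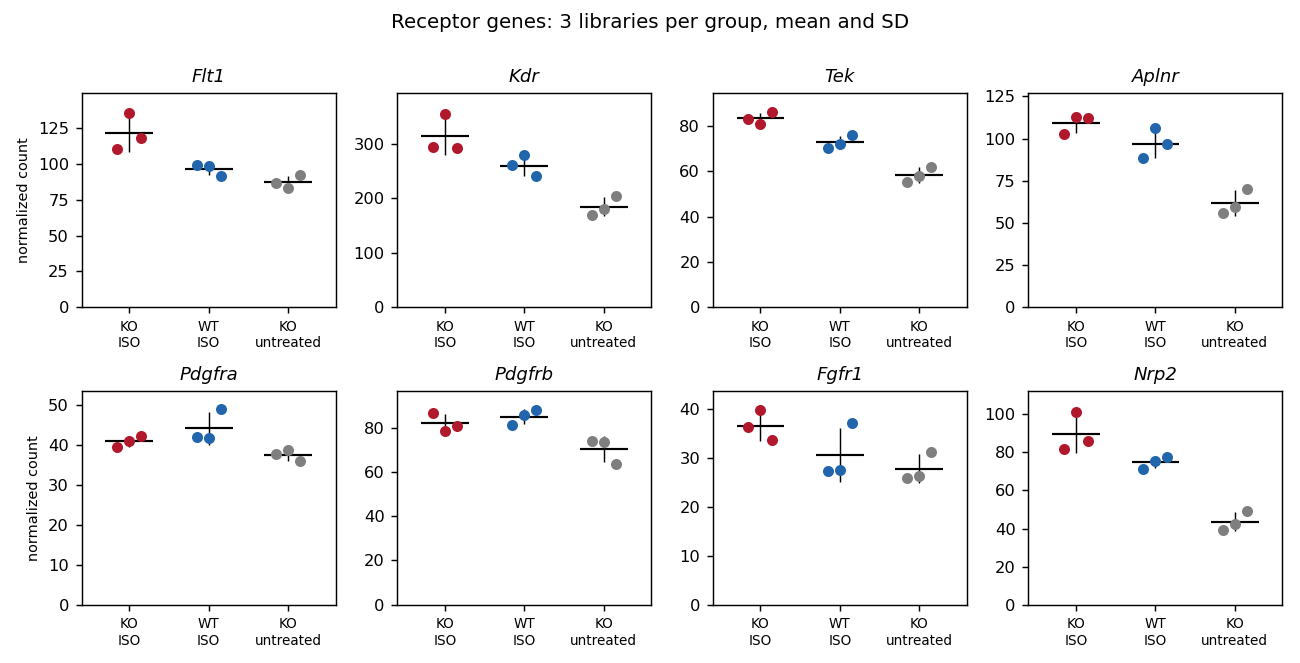
Normalized counts (vertical axes, from 0) of 8 receptor genes in each library, by group, with means and SDs of 3 libraries. Kdr, Tek, Aplnr and Nrp2 stand higher in both treated groups than in untreated knockout hearts, with no library overlapping.

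Other growth factor ligands did not move one way. Of 23 tested, 6 were higher and 7 lower in treated than in untreated knockout hearts, with a median difference of -0.02. The shares of all genes were 21.3% and 20.4%. Angptl4, a secreted inhibitor of lipoprotein lipase, was at 11.2 ± 1.53 in treated and 38.3 ± 14.9 in untreated knockout hearts (-1.64 ± 0.20, adjusted p = 2.7e-05), and Pdgfd, a further PDGF ligand, was at 19.9 ± 3.14 and 11.6 ± 0.126 (0.72 ± 0.12, adjusted p = 0.00036). Fgf12 and Fgf13 belong to the intracellular FGF homologues, which bind sodium channels and not FGF receptors. Fgf13 was at 26.6 ± 4.07 in treated and 49.8 ± 3.78 in untreated knockout hearts. Fgf12 was at 0.165 ± 0.127 in treated and 8.14 ± 3.01 in untreated knockout hearts, and at most 0.461 in any of the 6 treated libraries. The atrial markers Bmp10, Myl7 and Sln were likewise at or near 0 in the treated libraries. They ranked the untreated libraries in the same order as Fgf12 did. The part of atrial tissue in the Fgf12 difference was not tested. Between the treated groups 2 of the 23 were higher and 2 lower, while 17.4% of all genes passed. Pdgfd (0.45 ± 0.12, adjusted p = 0.022) and the chemokine Cxcl12 (0.31 ± 0.10, adjusted p = 0.041) were higher. Fgf13 (-0.53 ± 0.11, adjusted p = 0.0045) and Hbegf, a ligand of the EGF receptor (-0.57 ± 0.19, adjusted p = 0.047), were lower. Only the call of Fgf13 held without each library in turn; those of Pdgfd, Cxcl12 and Hbegf were each lost without 1 or more libraries (leaving out treated wild-type replicate 3 put Cxcl12 at 0.195, adjusted p = 0.11). The count was 0 higher and 1 lower without treated wild-type replicate 2.

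In treated against untreated knockout hearts 21.3% of all genes were higher and 20.4% lower. Modulators and inhibitors of these pathways were higher for 9 and lower for 4 of 23 (median 0.33). The higher ones included Col18a1, the source of endostatin (1.0 ± 0.16, adjusted p = 0.00023), and Vash1, an inhibitor made by endothelial cells (0.94 ± 0.14, adjusted p = 0.00013). Ptprb, the phosphatase that restrains TEK, was at 192 ± 6.81 in treated and 130 ± 9.41 in untreated knockout hearts (0.56 ± 0.08, adjusted p = 8.3e-05). Hspg2, perlecan of the basement membrane, was at 654 ± 71.4 and 412 ± 23.2 (0.66 ± 0.08, adjusted p = 3.3e-05). Between the treated groups 1 was higher and 2 lower of the 23 (median 0.08), while 17.4% of all genes passed. The 3 were Sema3f at 0.52 ± 0.16, Grb10 at -0.29 ± 0.07 and Furin at -0.26 ± 0.08, with adjusted p = 0.039, 0.013 and 0.036. Each of these 3 calls was lost when 1 library or another was left out (Sema3f was at 0.33 without treated knockout replicate 2, adjusted p = 0.17), and the count was 0 without treated wild-type replicate 2.

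Hypoxia response genes and regulators of VEGF-A were lower for 9 and higher for 1 of 22 in treated knockout against treated wild-type hearts. Their median was -0.23, and 9.47% of all genes were lower and 7.92% higher. This list holds genes induced by HIF as well as genes that restrain it, so the count gives no direction of HIF activity. The 1 higher gene, named after its value was seen, was Ndrg1 (0.35 ± 0.11, adjusted p = 0.036), a call lost without treated knockout replicate 2 or 3 or treated wild-type replicate 1. Egln3, a prolyl hydroxylase induced by HIF, was at 122, 121 and 126 in treated knockout hearts, 172, 176 and 144 in treated wild-type hearts and 63.9, 67.9 and 74.1 in untreated knockout hearts. It was thus lower than in treated wild-type hearts (-0.41 ± 0.08, adjusted p = 0.0056) and higher than in untreated knockout hearts (0.84 ± 0.08, adjusted p = 5.3e-06). Esrrg, an oestrogen-related receptor that acts on energy metabolism genes, was at 26.4 ± 2.08 in treated knockout, 45.5 ± 4.92 in treated wild-type and 47.0 ± 3.27 in untreated knockout hearts, lower than in treated wild-type hearts with a difference of -0.76 ± 0.10 (adjusted p = 0.00036). Hif1an, the asparaginyl hydroxylase that restrains HIF, was at 49.8 ± 6.30 in treated knockout, 80.0 ± 6.21 in treated wild-type and 89.7 ± 2.87 in untreated knockout hearts (-0.68 ± 0.09 between the treated groups, adjusted p = 0.00059). Pdk1, a kinase that inhibits the pyruvate dehydrogenase complex, differed by -0.47 ± 0.09 between the treated groups (adjusted p = 0.0037). Between the knockout groups the same list split, with 6 higher and 9 lower (median -0.03), against 21.3% and 20.4% of all genes. Bnip3, a mitophagy receptor induced by HIF, was higher there by 0.55 ± 0.08 (adjusted p = 8.5e-05). Without treated knockout replicate 2 the list had 0 higher and 5 lower between the treated groups.

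Genes listed for endothelial sprouting and new vessel wall were mostly higher in treated than in untreated knockout hearts. Of 23, 14 were higher and 1 lower (median 0.56), against 21.3% and 20.4% of all genes. The 18 endothelial markers had a median of 0.87 in this comparison and of 0.43 between the treated groups. The part of endothelial and other cell types in the differences of this list was not tested. Col4a1 and Col4a2, the chains of basement membrane collagen, were higher by 1.06 ± 0.08 (adjusted p = 7.2e-07) and 0.95 ± 0.07 (adjusted p = 7.6e-07), and Mcam, an adhesion molecule of vessels, by 1.42 ± 0.10 (adjusted p = 6.4e-07). Lama4, a laminin of vessel basement membrane, was higher by 0.90 ± 0.08 (adjusted p = 3.1e-06). Between the treated groups 5 were higher and 1 lower (median 0.16), against 7.92% and 9.47% of all genes. Robo4 (0.36 ± 0.11, adjusted p = 0.042) as a higher gene and Rcan1 (-0.53 ± 0.15, adjusted p = 0.026) as the lower one are named after their values were seen. The call of Robo4 was lost in 7 of the 9 fits that left out 1 library, and that of Rcan1 without treated knockout replicate 1 or 3 or treated wild-type replicate 2. Dll4, the Notch ligand of tip cells, was at 24.2, 40.4 and 26.5 in treated knockout hearts, 19.0, 18.7 and 19.5 in treated wild-type hearts and 21.4, 18.4 and 19.6 in untreated knockout hearts, so the treated knockout libraries were the high ones (0.61 ± 0.14 over treated wild-type hearts, adjusted p = 0.012). Leaving out treated knockout replicate 2 put Dll4 at 0.39 (adjusted p = 0.026). Nos3, endothelial nitric oxide synthase, and Notch4 were higher by 0.53 ± 0.10 (adjusted p = 0.0035) and 0.48 ± 0.11 (adjusted p = 0.0095), and the Notch target Hey1 by 0.44 ± 0.11 (adjusted p = 0.018). The call of Hey1 was lost without treated knockout replicate 2 or 3 or treated wild-type replicate 2 (adjusted p = 0.057 to 0.072), and without treated knockout replicate 2 the list had 3 higher and 1 lower.

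**Figure D5:**
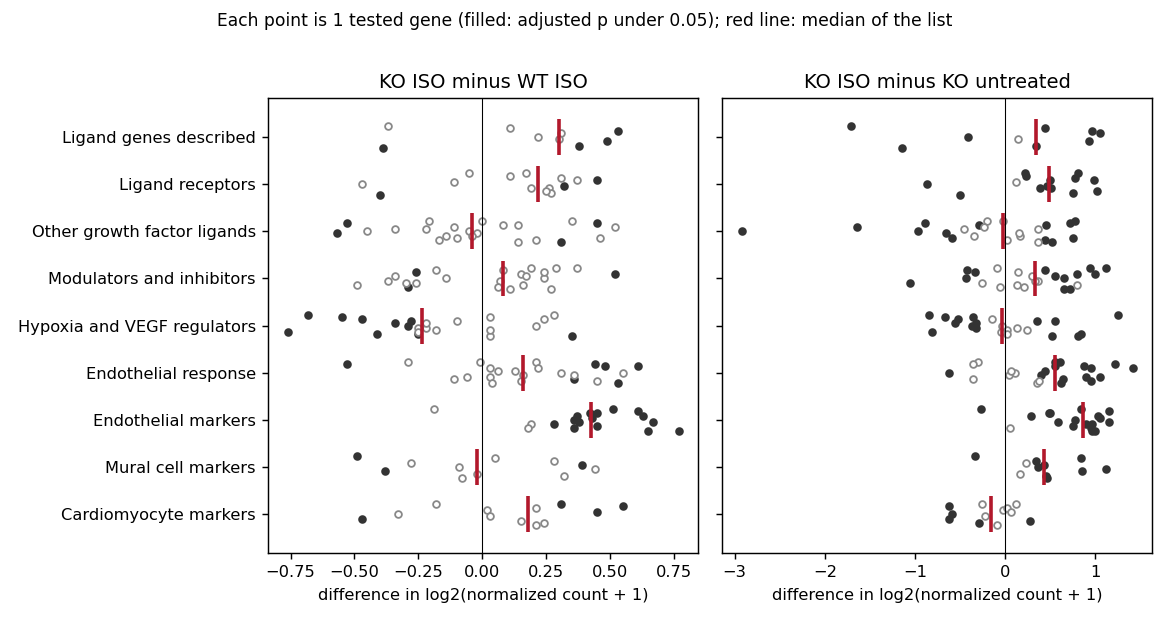
Difference in log2(normalized count + 1) (horizontal axes) of each tested gene of the ligand set and of 8 other gene lists, for treated knockout minus treated wild-type hearts (left) and minus untreated knockout hearts (right). Filled points passed an adjusted p under 0.05, and red lines are medians, which for the receptors are 0.22 and 0.49 and for the hypoxia and VEGF regulators -0.23 and -0.03.

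Over all 9 libraries, the 3 ligands that varied most between groups were Angpt1, Fgf1 and Apln, by the F statistic of limma. The genes with the most similar profile were found by the root mean square difference from the ligand in log2(normalized count + 1), each profile centred on its own mean, among 8191 genes with a mean of at least 10. They were picked for the smallest differences, so values below the median of all genes compared were fixed in advance. Slc25a34, a mitochondrial carrier, was nearest to Angpt1 (0.12, against a median of 0.755 for all genes compared), followed by Paqr9 (0.169) and Myom2, a protein of the sarcomere M band (0.17). Slc25a34 averaged 55.1 in treated knockout, 68.0 in treated wild-type and 168 in untreated knockout hearts. Nearest to Fgf1 were Sema4d (0.088), 1110018G07Rik (0.093) and Ppp1r14c (0.098), against a median of 0.492. Nearest to Apln were Kit, the receptor of stem cell factor (0.098), Myadm (0.104) and Ppp1r18 (0.109), against a median of 0.496. Kit averaged 13.2 in treated knockout, 11.1 in treated wild-type and 5.96 in untreated knockout hearts.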

How the data were processed

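RNA sequencing libraries of mouse heart, 9 in all with 3 in each of 3 groups, were analysed from 1 table deposited by the authors. Per the submitters' processing notes, cutadapt, RSEM 1.17 and limma were used with GRCm38; for their settings and the annotation, the sources used here give nothing. The deposited values are a signal, normalized expected counts per gene, and were not rescaled. In every library the values stepped by whole reads: 100% of the values under 200 reads came out whole within 0.02 reads, and this gave 6933879 to 12187701 reads per library. These recovered reads were used for edgeR, DESeq2 and voom as alternatives.

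Of the 13539 genes, 13369 reached a value of 1 or more in 3 or more libraries, and limma 3.58.1 (R 4.3.3) was applied to them on log2(value + 1), a scale that understates the change of low genes. The fit held all 9 libraries with 1 mean per group and a mean-variance trend, and p-values were two-sided with Benjamini-Hochberg adjustment and a threshold of 0.05. The same steps were tested on simulated data. The labels number the replicates 1 to 3 without naming animals or cultures, so the p-values reflect only how these samples scatter, which may be technical. edgeR 4.0.16 and DESeq2 1.42.0 were run on the recovered reads.

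The ligand genes and all gene lists were chosen with earlier results of these data known. From each list, up to 4 genes with the smallest p in the comparison described are named, with 7 main receptors whatever their p. Gene positions and transcript lengths come from GENCODE M21 (GRCm38), and promoter sequences from RefSeq (GRCm38.p6). In 26 alternatives the pseudocount, filter, scaling, test, replicate block, length and GC correction, and each library in turn were changed.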

Additional observations from a re-analysis of the deposited data

How the results depend on the processing

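Of the 27 ligand differences (9 genes in 3 comparisons), 15 kept their direction and their side of the threshold in all alternatives that tested them; Vegfc and Angpt2 were not tested with a minimum value of 10. Differences are in log2 units. Between treated knockout and treated wild-type hearts 4 ligands passed, and 2 to 5 did when 1 library was left out, the 2 without treated knockout replicate 2 or treated wild-type replicate 2. Vegfb in that comparison turned to -0.076 with length and GC correction, with or without the replicate block. Vegfa in treated wild-type against untreated knockout hearts turned to 0.020 with scaling to the non-mitochondrial sum and 0.029 with cyclic loess, and ran from -0.128 to 0.015 when 1 library was left out. Pdgfra turned to 0.005 with length and GC correction, with or without the block, and Pdgfrb to 0.012 with cyclic loess, both between the treated groups; Fgfr1 in treated wild-type against untreated knockout hearts ran from -0.016 to 0.210 without 1 library. The cause was not tested. Over all genes, 2325 passed between the treated groups, against 1400 without the trend, 1520 with length and GC correction, 1389 with that correction and the block, 1161 without treated knockout replicate 2, and 1488 and 1489 without treated wild-type replicate 1 and 2. Scaling to the non-mitochondrial sum put the median of all genes at 0.11 between the knockout groups, against 0.02 as deposited.

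Same-numbered libraries correlated at -0.099 to 0.135 over 9 pairs, 1 of them over 0.1, so the numbers were not taken to pair the samples. With the replicate block 4, 8 and 5 ligands passed in the 3 comparisons, of 4, 8 and 6 without it: Angpt1 passed (adjusted p = 0.039) and Angpt2 did not (adjusted p = 0.051) between the treated groups, and Angpt2 did not in treated wild-type against untreated knockout hearts (adjusted p = 0.057). Angpt2 and Vegfc rested on 17 to 71 and 41 to 92 reads per library; the part of depth in their calls was not tested.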
